A study of Mus musculus with 6 samples.

Results

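The genes described here are 41 antioxidant and detoxification genes tied to the transcription factor NRF2, measured by RNA-seq in KVTR cells with and without dopamine. They were taken by symbol from a list of pathway genes, and all 41 were found among the 56691 genes of the deposited table. KVTR cells are labelled as clear cell renal carcinoma cells isolated from mouse. That identity is in question for every value below, since 11 of 20 kidney epithelium markers stayed below 1 CPM in each library. The filter on low counts was passed by 7 of the 20 and by 12 of 13 astrocyte markers. It was also passed by 12 of 12 fibroblast and pericyte and 8 of 8 clear cell carcinoma markers. Passing therefore did not single out a cell type. The labels give no genotype, passage, dose or duration of dopamine. The blank group and the dopamine group had 3 libraries each, and both came from the same labelled cells. Of the blank count columns, 1 has a name without a number, and its library appears below as the unnumbered blank. Separate cultures are not mentioned in the labels, so the spread behind each p-value is that of these libraries and may be technical. Library totals ran from 16771499 to 23375622 counts. Levels are in CPM, counts scaled to a fixed library total with TMM factors for library composition. Levels of different genes are compared in FPKM, which also divides by exonic length and was recomputed from the counts.

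NRF2, encoded by Nfe2l2, is held in the cytosol and marked for breakdown by KEAP1. Oxidants and electrophiles, among them the quinones that form when catechols such as dopamine oxidise, modify cysteines of KEAP1 and let NRF2 reach the nucleus. There it pairs with a small MAF protein on antioxidant response elements and raises the transcripts of enzymes that make glutathione, regenerate NADPH, reduce peroxides and conjugate or export toxic compounds. BACH1 competes for the same elements as a repressor, and the autophagy receptor p62, encoded by Sqstm1, binds KEAP1 and is itself a target. Among kidney cancers, some tumours carry changes in KEAP1 or NRF2.

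Antioxidant response elements are usually written with the core letters TGACNNNGC. These letters were sought on both strands, from 250 bases before to 50 bases after each transcription start, in RefSeq promoters of build GRCm38.p6, a different build from the GRCm39 coordinates of the count table. Of the members, 35 had a promoter in that table, and 14 of them (40.0%) held the letters, against 14.0% of all 27025 genes with a promoter. The overlapping AP-1 type letters TGANTCA were found in 5 of the 35 (14.3%) and in 8.97% of all genes. A match is not a binding site, and no binding was measured here. The windows below are a choice of 8 of these 14 members, from several roles in the pathway, with the letters before the transcription start. They are read on the strand of the gene, with the TGACNNNGC letters or their reverse complement in capitals.
Txnrd1: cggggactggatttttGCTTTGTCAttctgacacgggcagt
Gclm: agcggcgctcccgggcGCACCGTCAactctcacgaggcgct
Prdx1: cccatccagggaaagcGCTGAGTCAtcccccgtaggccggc
G6pdx: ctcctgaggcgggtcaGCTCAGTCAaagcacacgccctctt
Me1: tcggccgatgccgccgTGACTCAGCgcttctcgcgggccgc
Mgst1: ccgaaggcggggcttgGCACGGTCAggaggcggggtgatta
Gsta3: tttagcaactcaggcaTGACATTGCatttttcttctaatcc
Nfe2l2: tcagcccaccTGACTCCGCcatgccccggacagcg
The Txnrd1 window lies at chr10:82859098-82859138 (plus strand), that of Gclm at chr3:122245407-122245447 (plus) and that of Prdx1 at chr4:116685450-116685490 (plus). Those of G6pdx (chrX:74428913-74428953) and Me1 (chr9:86695896-86695936) are on the minus strand, as is that of Nfe2l2 (chr2:75704879-75704913), while Mgst1 (chr6:138140455-138140495) and Gsta3 (chr1:21240448-21240488) are on the plus strand. The capitals of Prdx1 and Me1 also overlap the letters TGANTCA. In the comparison below, the median log2 fold change was 0.40 over 13 tested members with TGACNNNGC and 0.51 over 19 without TGACNNNGC. It was 0.42 over the 6 members that had no promoter to search (Abcc1, Gclc, Gsr, Gsta4, Hmox1 and Prdx6). Letters outside the searched stretch were not seen, so this split cannot separate members with and without antioxidant response elements.

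No NRF2 gene passed the test between dopamine and blank after adjustment over all genes. The groups did not overlap for 6 members, with 5 above and 1 below in every dopamine library. Of all genes tested, 4% lay above and 4.47% below in this way. The quasi-likelihood test of edgeR called 0 of the 38 members that passed the filter on low counts, and 0 of the 15420 genes tested (0%), at a Benjamini-Hochberg adjusted p of 0.05. Each tested member had an edgeR adjusted p of 0.9997. At an unadjusted p under 0.05, edgeR found 4 members, all higher with dopamine, against 1.04% of all genes higher and 1.9% lower. At an adjusted p under 0.05, DESeq2 called 0 members and 0.091% of the genes it tested. On the log2 scale, 34 of the 38 members (89.5%) lay on the higher side, against 51.7% of all genes tested. The median log2 fold change was 0.46 for the members and 0.01 for all genes. Members share their libraries, so this count only describes these 6 libraries. Leaving out the unnumbered blank brought the median to 0.20 and the count to 28 of 39, leaving out dopamine 3 gave 0.29, and leaving out blank 2 gave 0.71.

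**Figure D1:**
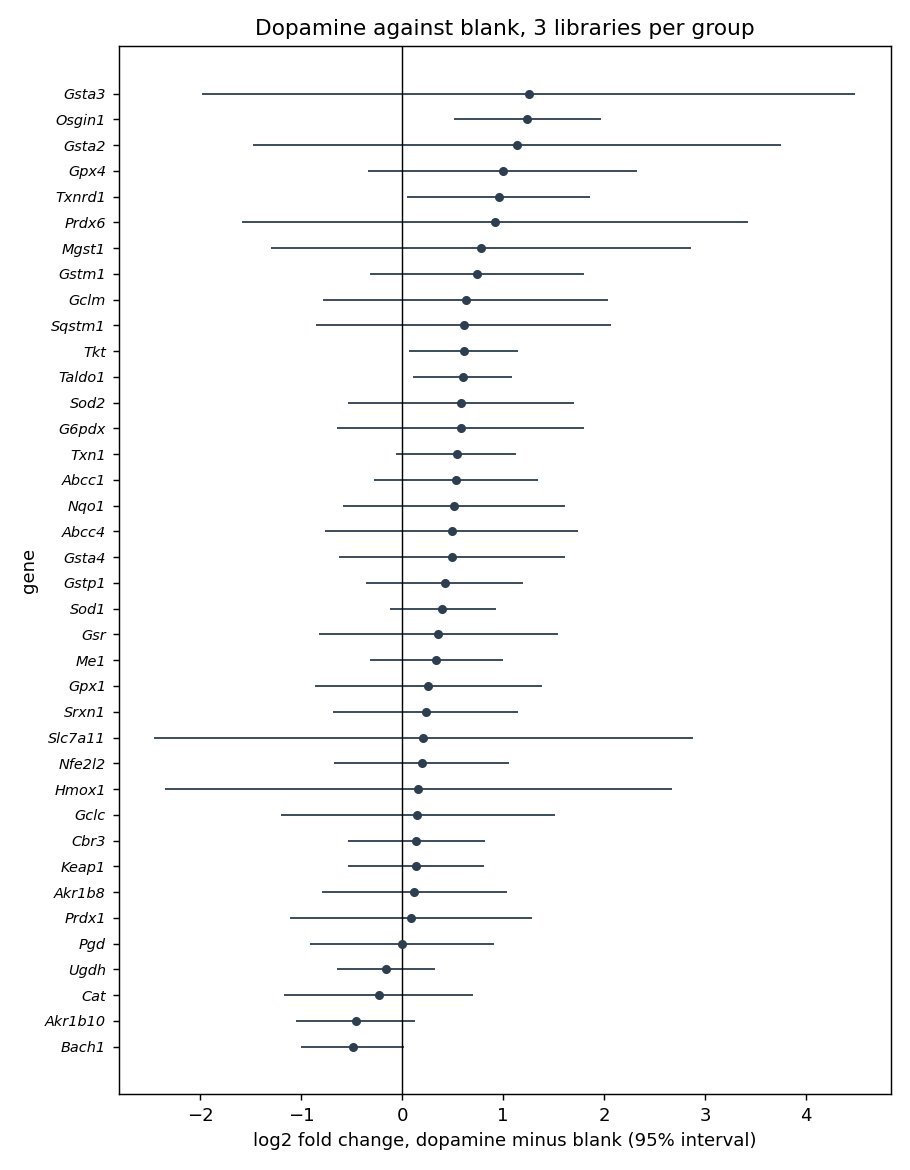
Fitted log2 fold change of each tested NRF2 gene (vertical axis), dopamine minus blank, with its 95% interval (horizontal axis, log2 units) from 3 libraries per group. Most points lie right of 0, and 4 of the 38 intervals, unadjusted for the number of genes, leave out 0.

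The members varied widely between libraries of the same group. From the lowest to the highest of the 6 libraries, the median member spanned 3.28-fold in CPM, against 2.14-fold for all genes tested, and 15 of 38 members (39.5%) spanned at least 4-fold, against 22.3% of all genes. The unnumbered blank library was the lowest for 24 members (63.2%, against 24.3% of all genes tested) and dopamine 1 for 7 (18.4%, against 22.2%). Dopamine 2 was the highest for 13 members (34.2%, against 14.3% of all genes), dopamine 3 for 12 (31.6%, against 15.4%) and blank 2 for 6 (15.8%, against 11.7%). Together the 41 genes took 1.79% of all counts in blank 2, 1.14% in blank 3 and 0.603% in the unnumbered blank, and 1.01%, 2.05% and 1.95% in dopamine 1, 2 and 3. The group ranges therefore overlapped, with blank 2 close to dopamine 2 and 3 and dopamine 1 between blank 3 and the unnumbered blank.

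**Figure D2:**
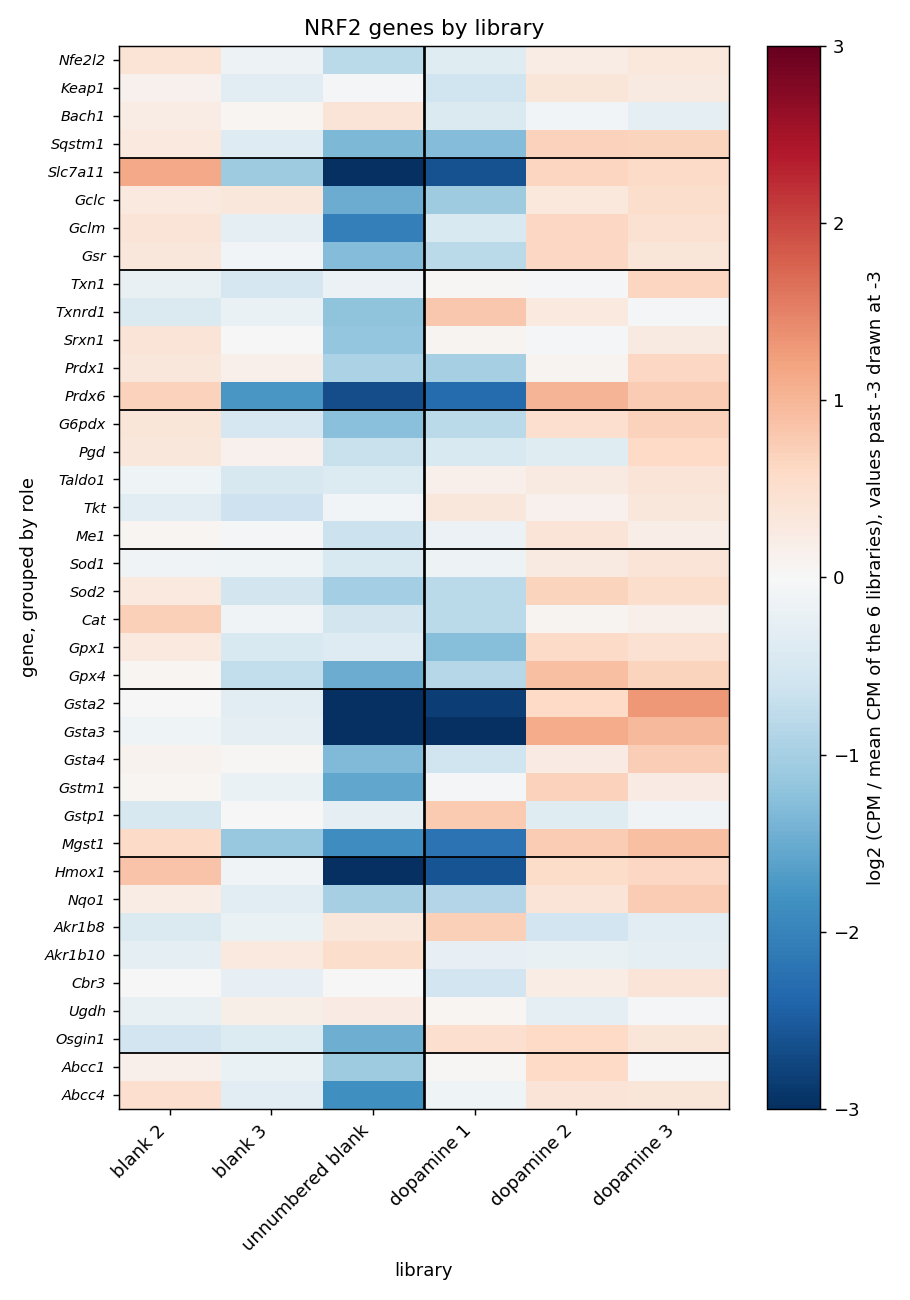
Level of each tested NRF2 gene (rows, grouped by role) in each of the 6 libraries (columns), as log2 of its CPM over the mean CPM of the 6 libraries, with values past -3 drawn at -3. The unnumbered blank library and dopamine 1 are low for most rows, and Txnrd1, Tkt, Gstp1 and Akr1b8 are at their highest in dopamine 1.

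Taken library by library, dopamine 2 and dopamine 3 differed from dopamine 1. Dopamine 2 lay above all 3 blank libraries for 24 of 38 members (63.2%, against 23.6% of all genes tested), and dopamine 3 for 26 (68.4%, against 25.4%). Dopamine 1 did so for 7 members (18.4%, against 25.5% of all genes) and lay below all 3 blank libraries for another 7 (26.3% of all genes). The members above all blank libraries in dopamine 1 were Txnrd1, Txn1, Taldo1, Tkt, Osgin1, Gstp1 and Akr1b8. The median log2 ratio to the blank mean over the members was -0.45 in dopamine 1, 0.62 in dopamine 2 and 0.64 in dopamine 3, against -0.04, -0.05 and -0.01 over all genes.

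**Figure D3:**
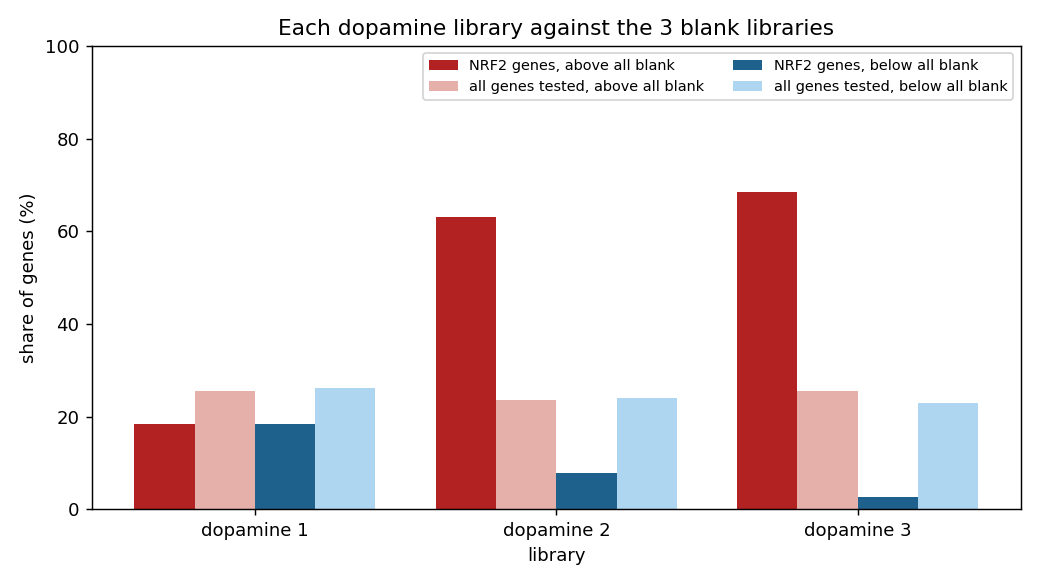
Share of genes (vertical axis, %) above or below all 3 blank libraries in each dopamine library, for the 38 tested NRF2 genes (dark bars) and for all 15420 genes tested (pale bars). The dark red bars reach 63.2% and 68.4% in dopamine 2 and 3 and 18.4% in dopamine 1.

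The groups overlapped for 3 of the 4 regulators. Nfe2l2, the NRF2 gene itself (chromosome 2, 75505857 to 75534985, GRCm39), stood at 556, 373 and 237 CPM in blank 2, blank 3 and the unnumbered blank. In dopamine 1, 2 and 3 it stood at 324, 490.3 and 521 CPM (log2 fold change 0.20 ± 0.36 SE). The ranges overlapped, and the highest value was that of blank 2. Keap1, the adaptor that sends NRF2 to the proteasome, was at 60.5, 44.1 and 53.5 CPM in the blank libraries, in the same order, and at 36.7, 70.8 and 66.1 CPM in the dopamine libraries (0.14 ± 0.29). Its lowest and highest values were both dopamine libraries.

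Bach1, the repressor of heme oxygenase and other NRF2 targets, was the only tested member lower in every dopamine library than in any blank library (2.63% of the members, where 4.47% of all genes tested showed this). It was at 22.6, 20.4 and 25.4 CPM in blank 2, blank 3 and the unnumbered blank and at 14.3, 18.4 and 15.9 CPM in dopamine 1, 2 and 3. The log2 fold change was -0.49 ± 0.22, with a 95% interval that ended at 0.02. Its 1.77-fold span over the 6 libraries was among the 3 smallest. Sqstm1, which encodes the KEAP1-binding receptor p62, was at 1154, 716 and 369 CPM in the blank and 381, 1526 and 1502 CPM in the dopamine libraries (0.61 ± 0.62). Dopamine 1 and the unnumbered blank were nearly equal at the low end.

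The cystine importer and the enzymes of glutathione synthesis overlapped widely between the groups. Slc7a11, the light chain of the cystine-glutamate exchanger that supplies cysteine for glutathione, was at 1116 CPM in blank 2, 245 in blank 3 and 56.2 in the unnumbered blank, and at 82.9, 798 and 759 CPM in dopamine 1, 2 and 3. This 19.9-fold span was the third widest among the members, and the highest and lowest values were both blank libraries (0.21 ± 1.13, 95% interval -2.46 to 2.88). Gclm, the modifier subunit of glutamate-cysteine ligase, was at 629.8, 396 and 116 CPM in the blank and 354, 744 and 667 CPM in the dopamine libraries (0.63 ± 0.60). Gclc, the catalytic subunit of that ligase, was at 322, 329 and 93.4 CPM against 125, 327 and 375 CPM (0.15 ± 0.57). For both subunits the unnumbered blank was lowest, and dopamine 1 was lower than blank 2 and 3. Gsr, which reduces oxidised glutathione, was lowest in the unnumbered blank at 52.1 CPM and highest in dopamine 2 at 193 CPM.

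In the thioredoxin system, Txnrd1 and Txn1 were higher in every dopamine library than in any blank library. They are part of a set of 5 such members (13.2% of those tested, where 4% of all genes tested showed this), with Taldo1, Tkt and Osgin1. Txnrd1, the selenoenzyme that reduces thioredoxin (chromosome 10, 82669785 to 82733546), was at 1045, 1235 and 614 CPM in blank 2, blank 3 and the unnumbered blank. It was at 2514, 1731 and 1376 CPM in dopamine 1, 2 and 3 (0.96 ± 0.38, 95% interval 0.05 to 1.86, edgeR adjusted p = 0.9997). Its highest value was in dopamine 1, where most other members were low.

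Txn1, thioredoxin itself, was at 157, 129 and 164 CPM in the blank and 189, 177 and 288 CPM in the dopamine libraries (0.54 ± 0.25, 95% interval -0.06 to 1.13). The gap between the groups was small beside the distance of dopamine 3 from the other dopamine libraries. Srxn1, which repairs overoxidised peroxiredoxins, was at 442, 336 and 152 CPM against 358, 330.1 and 408 CPM (0.24 ± 0.39), with blank 2 highest. Prdx6, a peroxiredoxin that acts on phospholipid peroxides, spanned 12.7-fold, with 369.6 CPM in the unnumbered blank and 4706 CPM in dopamine 2 (0.92 ± 1.06). The related Prdx1 spanned 3.08-fold, from 549.7 CPM in dopamine 1 to 1694 CPM in dopamine 3 (0.09 ± 0.51).

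**Figure D4:**
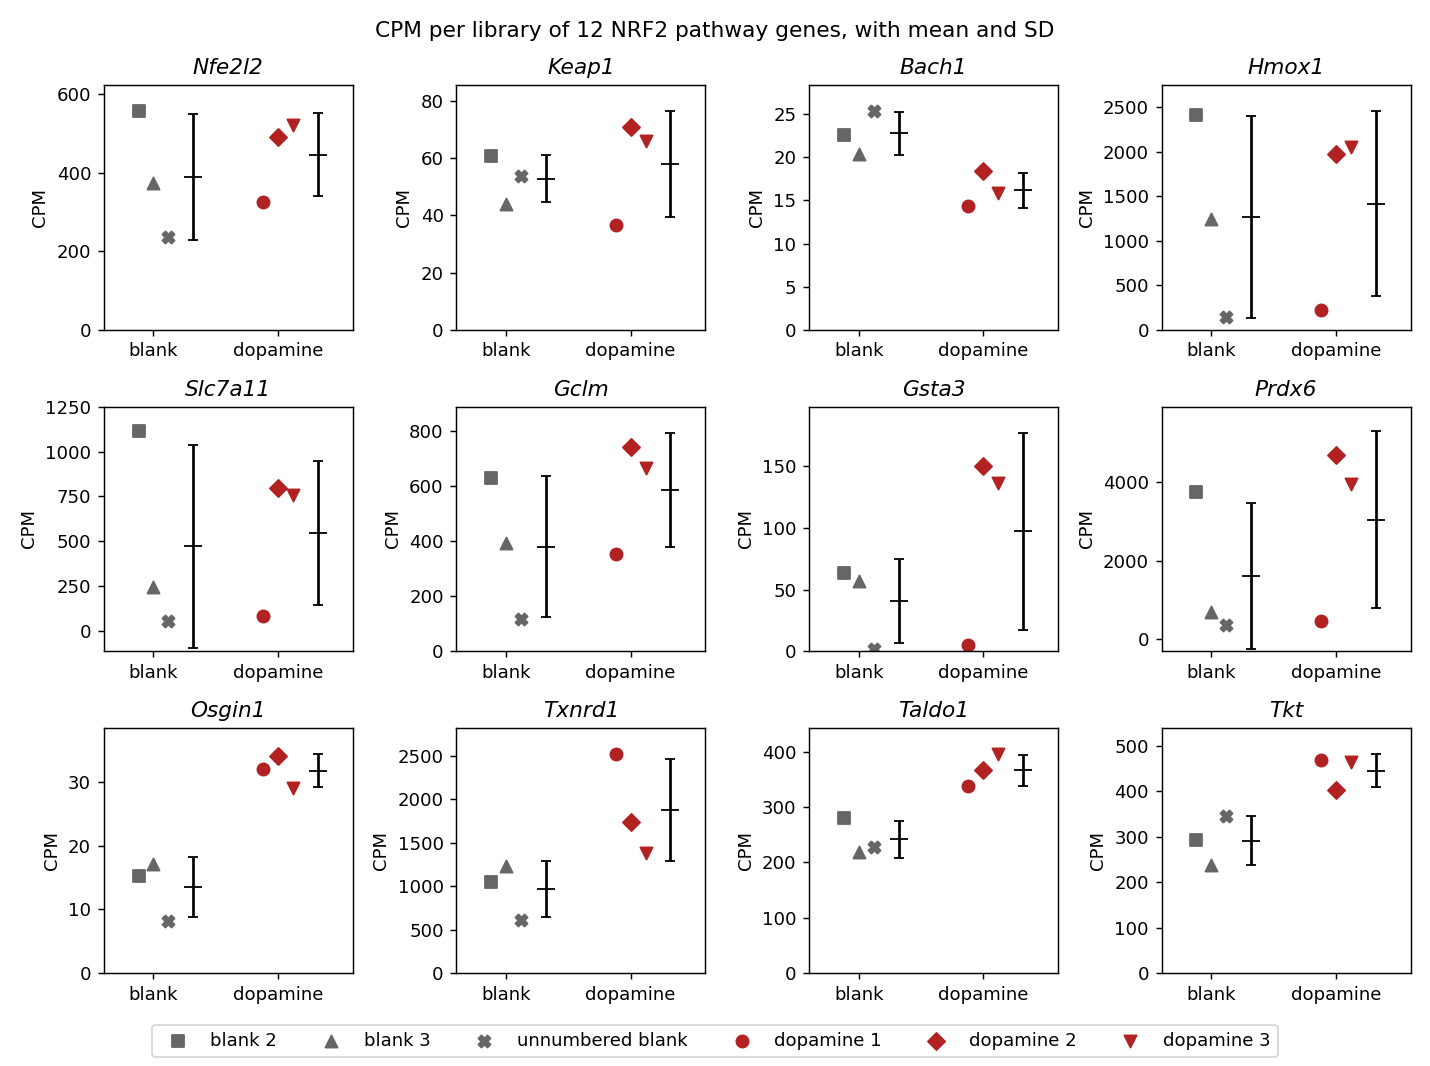
CPM (vertical axis, linear) of 12 NRF2 pathway genes in each library, with 1 symbol per library and the mean ± SD of 3 libraries per group in black. Hmox1, Slc7a11, Gsta3 and Prdx6 are low in the unnumbered blank and dopamine 1, whereas Osgin1, Txnrd1, Taldo1 and Tkt are higher in each dopamine library than in each blank library.

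Among the genes of NADPH supply, the non-oxidative pentose phosphate enzymes Taldo1 and Tkt, which interconvert sugar phosphates, did not overlap between the groups. Taldo1, transaldolase (chromosome 7, 140972112 to 140982881), was at 280.1, 218 and 227 CPM in the blank and 339, 366 and 395 CPM in the dopamine libraries (0.60 ± 0.21, 95% interval 0.11 to 1.09). Tkt, transketolase (chromosome 14, 30270316 to 30296677), was at 291, 237 and 344 CPM against 467, 403 and 463 CPM (0.61 ± 0.23, 95% interval 0.07 to 1.15). Each had an edgeR adjusted p of 0.9997, and neither passed in any alternative. Within the dopamine group Taldo1 spanned 1.17-fold and Tkt 1.16-fold.

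The enzymes of the oxidative branch, which make NADPH, overlapped. G6pdx, glucose-6-phosphate dehydrogenase, ran from 121 to 371 CPM without and from 166 to 462 CPM with dopamine (0.58 ± 0.52). Pgd, the next dehydrogenase, averaged 234 CPM in both groups (0.00 ± 0.39). Me1, malic enzyme, ran from 239 to 392.5 CPM without and from 332 to 492 CPM with dopamine (0.34 ± 0.28).

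The superoxide and peroxide enzymes gave overlapping ranges. Sod1, the cytosolic superoxide dismutase, ran from 135 to 172 CPM without and from 166 to 242 CPM with dopamine (0.40 ± 0.22), and the mitochondrial Sod2 from 90.7 to 226 CPM and from 106 to 292 CPM (0.58 ± 0.47). Gpx4, the glutathione peroxidase that reduces lipid hydroperoxides, ran from 269 to 799 CPM without and from 418 to 1418 CPM with dopamine (SE of the log2 fold change 0.56). Gpx1, a cytosolic glutathione peroxidase, had its lowest value, 32.3 CPM, in dopamine 1. Cat, catalase, lay on the lower side with dopamine (-0.23 ± 0.40), with 85.4 CPM in dopamine 1 and 243 CPM in blank 2 as its extremes. Gpx2 had 4 counts over the 6 libraries and was not tested. A gene without a count could be present at up to 3 counts, or 0.128 to 0.179 CPM of the unscaled totals, a bound that covers counting error only.

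The glutathione transferases included the widest spans of the members. Gsta3, an alpha class transferase (chromosome 1, 21310813 to 21335885), was at 63.3, 57.4 and 1.58 CPM in blank 2, blank 3 and the unnumbered blank and at 5.16, 150.2 and 136 CPM in dopamine 1, 2 and 3. This is a 94.97-fold span, of which 40.0-fold lay within the blank group and 29.1-fold within the dopamine group (1.26 ± 1.37, 95% interval -1.98 to 4.49). Gsta2 spanned 31.3-fold, at 2.43, 1.98 and 0.192 CPM in the blank and 0.344, 3.71 and 6.004 CPM in the dopamine libraries (95% interval of the log2 fold change -1.48 to 3.75). Both were lowest in the unnumbered blank and next lowest in dopamine 1. Gsta1 had 1 to 19 counts per library and was not tested.

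Reads of Gsta1 and Gsta2 may be shared. In GENCODE M21 transcripts, 84.7% of the 75-base stretches of Gsta1 and 36.6% of those of Gsta2 also occur in another gene, whereas Gsta3 and Gsta4 shared none. Gsta4, which conjugates the lipid peroxidation product 4-hydroxynonenal, ran from 127 to 341 CPM without and from 208 to 528 CPM with dopamine (0.49 ± 0.47). Gstm1, of the mu class, ran from 240.4 to 736 and from 679 to 1149 CPM (0.74 ± 0.45). Mgst1, a membrane-bound transferase, ran from 66.5 to 359 CPM without and from 52.4 to 453 CPM with dopamine (0.78 ± 0.88). Gstp1, of the pi class, went another way, with its highest value, 169 CPM, in dopamine 1 and 70.2 to 99.1 CPM in the other 5 libraries. Gstp1 shares 29.2% of its 75-base stretches with other genes, mainly Gstp2, which stayed below 1 CPM in each library.

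Hmox1, the oxygenase that opens heme to biliverdin, iron and carbon monoxide, was the most abundant member per length, with a mean of 746 FPKM, 29th among all genes of the table. It was at 2414, 1243 and 146 CPM in blank 2, blank 3 and the unnumbered blank and at 221, 1975 and 2057 CPM in dopamine 1, 2 and 3 (0.16 ± 1.06). Its 16.5-fold span lay wholly within the blank group. Nqo1, the quinone reductase that detoxifies catechol quinones among others, was at 132, 91.6 and 57.0 CPM against 62.0, 147 and 191 CPM (0.51 ± 0.46), with the same pair of libraries lowest.

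Osgin1, an oxidative stress-induced growth inhibitor (chromosome 8, 120160863 to 120172995), had the smallest p of the members. It was at 15.2, 17.0 and 8.15 CPM in blank 2, blank 3 and the unnumbered blank and at 32.1, 34.2 and 29.1 CPM in dopamine 1, 2 and 3. The dopamine values lay within 1.18-fold of each other and all stood above the blank values (1.24 ± 0.31, 95% interval 0.51 to 1.97). The edgeR adjusted p was 0.9997 and the DESeq2 adjusted p was 0.298. Over the alternatives its log2 fold change ran from 0.97 to 1.45.

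The remaining carbonyl and sugar enzymes gave overlapping ranges. Akr1b10, an aldo-keto reductase, was at 20.2, 30.1 and 35.3 CPM in the blank and 20.9, 21.1 and 20.4 CPM in the dopamine libraries (-0.46 ± 0.25). The dopamine libraries were within 1.03-fold of each other, and blank 2 lay just under them. Ugdh, which makes UDP-glucuronate for conjugation, had the smallest span, 1.42-fold, at 96.0, 127 and 134 CPM against 118, 94.0 and 107 CPM (-0.16 ± 0.20). Akr1b8, another aldo-keto reductase, was highest in dopamine 1 at 110.1 CPM and ran from 44.6 to 84.1 CPM elsewhere. Cbr3, a carbonyl reductase, ran from 16.2 to 31.3 CPM over the 6 libraries.

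Of the export pumps, Abcc1, which carries glutathione conjugates out of cells, ran from 90.5 to 209 CPM without and from 189 to 286 CPM with dopamine (0.53 ± 0.34). Abcc4, a pump for cyclic nucleotides and organic anions, ran from 15.5 to 78.5 CPM without and from 50.1 to 72.1 CPM with dopamine (0.49 ± 0.53). Abcc2, the apical pump of liver and proximal tubule, had at most 2 counts in any library and was not tested.

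Per length, the members covered a wide range of levels. After Hmox1 came Gstm1 (476 FPKM), Prdx6 (468), Gpx4 (431) and Prdx1 (357). Nfe2l2 averaged 108 FPKM, Keap1 11.7 FPKM and Bach1 3.16 FPKM. Gpx4 shares 29.8% of its 75-base stretches with a pseudogene, so part of its level could belong to that copy. Strand is not marked by the library kit, and G6pdx and Sod1 overlap the opposite-strand genes Ikbkg and Scaf4, whose counts came to 28.4% and 17.4% of theirs.

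Further genes of the pathway outside the 41 were also not called. Of thioredoxin, peroxiredoxin and glutaredoxin genes, 15 of 22 tested were higher, at a median log2 fold change of 0.07. Of other glutathione genes, 20 of 26 did (median 0.06), and of other NADPH genes 5 of 13 (median -0.05). Further detoxification and export targets gave 12 of 21 higher (median 0.10), and partners and regulators such as the small MAF genes and Cul3, the ubiquitin ligase scaffold that KEAP1 uses, 13 of 20 (median 0.09). In each of these lists 0 genes passed edgeR's threshold. By smallest p, these lists were led by Gss, glutathione synthetase, at 99.8, 111 and 117 CPM in the blank and 172, 136 and 152 CPM in the dopamine libraries (0.49 ± 0.18), and by H6pd, which makes NADPH in the endoplasmic reticulum, at 37.8, 40.0 and 49.0 CPM against 22.6, 30.7 and 30.1 CPM (-0.61 ± 0.21). Neither overlapped between the groups, where 4% of all genes tested lay wholly above and 4.47% wholly below with dopamine. Nnt, the mitochondrial transhydrogenase that makes NADPH, was at 2.78 to 3.36 CPM without and 1.32 to 1.86 CPM with dopamine (-0.96 ± 0.37).

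Of the heme and iron genes bound by NRF2, 6 of 8 lay on the higher side (median 0.20, 0 called). All but Slc40a1 had their lowest values in the unnumbered blank and dopamine 1. Their summed level was 16784, 9171 and 2974 CPM in blank 2, blank 3 and the unnumbered blank and 5162, 19846 and 20872 CPM in dopamine 1, 2 and 3. Most of this sum was Fth1, the ferritin heavy chain, with 13676 of the CPM in blank 2 and 17573 in dopamine 3, and it was lowest in the unnumbered blank and dopamine 1. Ftl1, the ferritin light chain, Hmox2 and Fech were lowest in dopamine 1 and next lowest in the unnumbered blank. Slc40a1, the iron exporter, was lowest in dopamine 3. The genes of smallest p in this list were Blvrb, a biliverdin reductase (0.62 ± 0.42), and Slc48a1, a heme transporter (0.63 ± 0.44), whose groups overlapped.

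Markers of the labelled tissue, of other cell types and of cell division also differed between libraries. Of 20 kidney epithelium markers, 11 stayed below 1 CPM in each library, and Slc22a6 and Aqp2 had no count. Lrp2, the endocytic receptor megalin, made up most of the kidney total, which ran from 98.6 to 252 CPM without and from 104 to 409 CPM with dopamine. Astrocyte markers summed to 7752, 2711 and 1317 CPM in blank 2, blank 3 and the unnumbered blank and to 1505, 7081 and 5917 CPM in dopamine 1, 2 and 3, with 12 of 13 tested. Gfap, the glial filament gene, was lowest in the unnumbered blank at 32.4 CPM and highest in blank 2 at 1630 CPM. Slc1a3, at 2393 CPM, and Gfap were the largest parts of the sum in blank 2. Other astrocyte markers had another order, with Aldh1l1 and Sox9 lowest in blank 3 and Gja1 in dopamine 3. The share of counts taken by the NRF2 genes was low where the astrocyte sum was low. The sum of the clear cell carcinoma markers, given below, was low in the same libraries. In bulk RNA, fewer cells of a type and less transcript per cell cannot be told apart.

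Markers of dividing cells summed to 767 CPM in the unnumbered blank and to 91.5 to 122 CPM in the other 5. Fibroblast and pericyte markers ran from 2543 to 3716 CPM without dopamine and with it from 800 CPM (dopamine 1) to 3575 CPM (dopamine 3). Leukocyte markers summed to 36.7 to 82.1 CPM without and 86.6 to 174 CPM with dopamine, with 7 of 12 below 1 CPM throughout, Ptprc among them. Cd68, a lysosomal protein, made up 84.6 of the 86.6 CPM in dopamine 1, where the mean log2 deviation of the list was -0.88, against 0.58 in blank 2. Endothelial markers summed to 49.1 to 210.4 CPM without and 14.2 to 59.1 CPM with dopamine. Of these 7 markers 4 stayed below 1 CPM, and Cdh5 made up 206 of the 210.4 CPM in the unnumbered blank. The 8 clear cell carcinoma markers summed to 4139, 1451 and 464 CPM in blank 2, blank 3 and the unnumbered blank. In dopamine 1, 2 and 3 they summed to 589, 3477 and 3179 CPM, the same order of libraries as the astrocyte sum. Most of it was ceruloplasmin (Cp), with Car9 at 2.81 CPM or less in each library. The part of these differences in the NRF2 values was not tested.

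**Figure D5:**
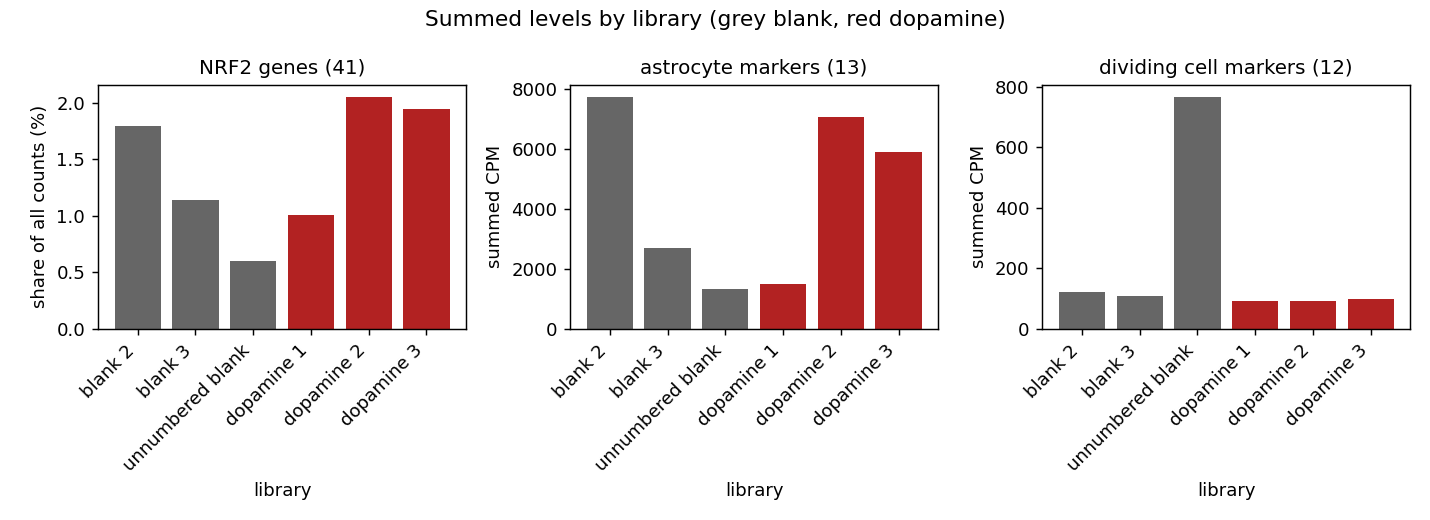
Share of all counts taken by the 41 NRF2 genes (%), and summed CPM of 13 astrocyte and 12 dividing cell markers, in each library (grey blank, red dopamine). The NRF2 share and the astrocyte sum are low in the unnumbered blank (0.603%, 1317 CPM) and in dopamine 1 (1.01%, 1505 CPM), and the dividing cell sum stands out in the unnumbered blank (767 CPM).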

How the data were processed

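The authors deposited 56691 genes with raw counts and FPKM by library, per the file headers. RNA was amplified with a SMART-Seq HT kit and read as 150 bp pairs, per the labels' protocols. The build is GRCm39 per the submitters' processing notes. Aligner, counter and strand setting are not given in these sources. FPKM was recomputed from the counts and exonic lengths for all 6 libraries, and only these values are printed. They lay within 0.006 of the authors' values for all genes in dopamine 2, blank 2 and blank 3 and for 54611 in dopamine 1. A further 2 FPKM columns were not used. The main comparison used edgeR 4.0.16 under R 4.3.3 (filterByExpr, TMM, quasi-likelihood test, 2-sided, no covariate), with DESeq2 1.42.0 and limma 3.58.1 as alternatives, and each tool was first tested on simulated data. Each standard error was taken from the fold change and the square root of F. The members and lists were chosen with earlier results of these data known. The members named with each library's value were the regulators, 7 canonical targets, members at an unadjusted p under 0.05 or without overlap between the groups, and the 3 widest and 3 narrowest spans at a mean of at least 1 CPM. Prdx6 in the plot and the marker genes named singly were chosen after their values were seen. From the other lists, up to 3 genes of smallest p were named.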

Additional observations from a re-analysis of the deposited data

How the results depend on the processing

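Over 13 alternatives, 0 NRF2 genes were called. The count over all genes was 0 except in DESeq2, which called 21 genes, none of them a member; edgeR called 0, with 161 higher and 293 lower at an unadjusted p under 0.05. The members' median stayed above 0, from 0.42 to 0.46 over other scalings, tools, filters and the numbered libraries, and from 0.20 to 0.71 with a library left out, when 28 to 34 members lay on the higher side. Directions held for 13 of 19 named members. They turned, with a library left out, for Slc7a11 (-0.32 to 1.85), Hmox1 (-0.37 to 1.02), Gclc (-0.24 to 0.50), Srxn1 (-0.09 to 0.58), Nfe2l2 (-0.06 to 0.54) and Keap1 (-0.05 to 0.38). Replicate numbers are shared only by libraries 2 and 3. With those 4 libraries Srxn1 stood at -0.07 with a replicate block and -0.08 without it, and 0 genes were called either way. Deviations from the group mean correlated at 0.603 for the libraries numbered 2 and at -0.272 for those numbered 3, across genes, so the numbers were not taken as pairs. Where a group kept 2 libraries, the fit pooled the spread. With 3 libraries per group and a biological coefficient of variation of 0.427, intervals for single members reached from -2.46 to 4.49.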

Other observations

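Slc7a11 is also a target of the stress transcription factor ATF4. Of 17 tested genes on a list of ATF4 and its targets, 11 lay on the higher side with dopamine, with a median log2 fold change of 0.21, and edgeR called 0. The list mean, as log2 CPM relative to the 6 libraries, was -0.17 in blank 2, 0.11 in blank 3, -0.18 in the unnumbered blank, and -0.33, 0.27 and 0.30 in dopamine 1, 2 and 3. Its lowest value was that of dopamine 1, and the unnumbered blank and blank 2 were nearly equal. Slc7a11, in contrast, was lowest in the unnumbered blank and dopamine 1 and highest in blank 2. Ddit4 and Nupr1, chosen after their values were seen, were lowest in the unnumbered blank and dopamine 1. Ddit4 stood at 46.7 CPM in the unnumbered blank and 57.6 CPM in dopamine 1, against 212 and 152 CPM in dopamine 2 and 3. Nupr1 stood at 47.2 and 63.6 CPM against 188 and 182 CPM in those libraries. Other genes of the list went another way. Phgdh, Shmt2 and Mthfd2 were highest in the unnumbered blank, and Asns was lowest in blank 2. Ddit3, the stress transcription factor CHOP, was at 30.9, 24.8 and 28.0 CPM in blank 2, blank 3 and the unnumbered blank and at 20.1, 77.4 and 60.9 CPM in dopamine 1, 2 and 3 (0.92 ± 0.46).

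Gstm7, a mu class glutathione transferase outside the 41 genes, stood at 53.9 CPM in dopamine 1 and at 9.95 to 15.1 CPM in the other 5 libraries. Esd, an esterase that hydrolyses S-formylglutathione, was at 763, 538 and 641 CPM in the blank and 899.9, 969 and 1177 CPM in the dopamine libraries (0.65 ± 0.26), and Abcc3, an export pump of the same family as Abcc1, at 1.91, 5.18 and 4.94 CPM against 0.631, 1.86 and 1.82 CPM (-1.47 ± 0.60). Ugt1a6a had the smallest p of the further detoxification and export targets and stayed below 1 CPM. It was at 0.694, 0.588 and 0.719 CPM in the blank and 0.287, 0.265 and 0.318 CPM in the dopamine libraries (-1.18 ± 0.45). The groups did not overlap for Esd, Abcc3 and Ugt1a6a, where 4% of all genes tested lay wholly above and 4.47% wholly below. They overlapped for Gstm7. None of these genes was called by edgeR.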
